A study of Homo sapiens with 8 samples.

Results

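RAB genes encode small GTPases of the RAS superfamily that mark the membranes of the secretory and endocytic pathways. A RAB protein is switched on by a guanine nucleotide exchange factor (GEF), which loads it with GTP, and switched off by a GTPase-activating protein (GAP). It is anchored in membranes by prenyl groups, taken back into the cytosol by a GDP dissociation inhibitor (GDI), and acts through effectors that mainly bind its GTP-bound form, such as tethers, motor adaptors and fusion factors. RAB25 is an epithelial relative of RAB11A and RAB11B that works on apical recycling endosomes. It was studied here as a gene regulated by Grainyhead-like 2 (GRHL2), a transcription factor of epithelial cells.

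The family was taken as every gene of the expression table whose symbol is RAB followed by digits and at most 1 letter, which gave 54 of 17561 genes. Another 9 RAB genes, including the epithelial genes RAB19 and RAB38, are absent from the expression table, so that whether GRHL2 altered them could not be tested. The cells were HepG2, a human hepatocarcinoma cell line, cultured on gelatin in a William's E medium with serum, insulin and dexamethasone. One group of 4 libraries came from cells transfected with a plasmid for flag-tagged GRHL2 (pGRHL2), driven by the EEF1A1 promoter in a bicistronic construct that also encodes enhanced green fluorescent protein. The other group of 4 came from cells that received pcDNA3, and RNA was collected 48 h after transfection in both. The plasmids thus differ in more than the GRHL2 coding sequence, and transfected and untransfected cells of a culture were measured together, so that a difference in a fraction of cells and a smaller one in every cell cannot be told apart.

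The deposited values are on a log2 scale adjusted for transcript length, run from -3.76 to 17.3 and have library medians of 6.71 to 6.73. Read depth is unknown, because the table holds no counts. GRHL2 itself lay between 16.22 and 16.87 with pGRHL2 and between 6.61 and 7.25 with pcDNA3, a difference of 9.48 ± 0.57 (SD, n = 4 pairs) that matched the labels. By RT-qPCR the study found little or no GRHL2 in this line under basal conditions. The GRHL2 values with pcDNA3 serve here only as a check of the labels. The 8 hepatocyte markers examined lay between 9.76 and 17.1 in pcDNA3 cells, with ALB at 16.9 and AFP at 17.1. Of the cholangiocyte markers examined, KRT19 was at 13.8, EPCAM at 11.6, SOX9 at 9.55 and KRT7 at 5.25 in the same cells. In all 17561 genes the mean of a pGRHL2 library and the pcDNA3 library of the same number was identical for the 4 numbers. The libraries are therefore described as 4 pairs, and a gene whose groups do not overlap is the same thing as a gene with the same direction in all 4 pairs.

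HepG2 cells expressed most of the RAB family, and its widely expressed members stood far above RAB25. With pcDNA3, 34 of the 54 genes lay above the median level of the table and 7 were among its 1757 most expressed genes. RAB1A, which acts between the ER and the Golgi, was highest at 12.1, followed by RAB10 at 11.8, which acts in exocytosis and basolateral transport. RAB7A of late endosomes was at 11.3, RAB6A of the Golgi at 11.3 and RAB2A of ER to Golgi traffic at 11.2. These are mean log2 levels of the 4 pcDNA3 libraries, adjusted for the mean length of a gene's transcripts. Levels still fell with length among the 1754 genes of lowest spread between pairs (slope -0.782 on log2 length). Comparisons of level between genes are therefore approximate.

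The lowest members were RAB39B at -0.69, RAB40A at -0.35, RAB9B at 0.65, RAB33A at 1.67 and RAB43 at 2.37. RAB43 shares 79.3% of its exon bases with a read-through gene, so that its reads are uncertain, and RAB23 shares 57.8% with BAG2. These were the 2 members with over 50% of exon bases shared with another gene. Close paralogs were often far apart. RAB5A, RAB5B and RAB5C of early endosomes lay at 10.1, 9.40 and 9.61, whereas RAB7A was at 11.3 and its relative RAB7B at 4.74. RAB11A was at 10.7 and RAB11B at 9.32, and RAB25, the third gene of that subfamily, was at 3.49. RAB25 was thus at percentile 28.5 of all genes by level, against percentile 92.7 for RAB11A.

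**Figure D1:**
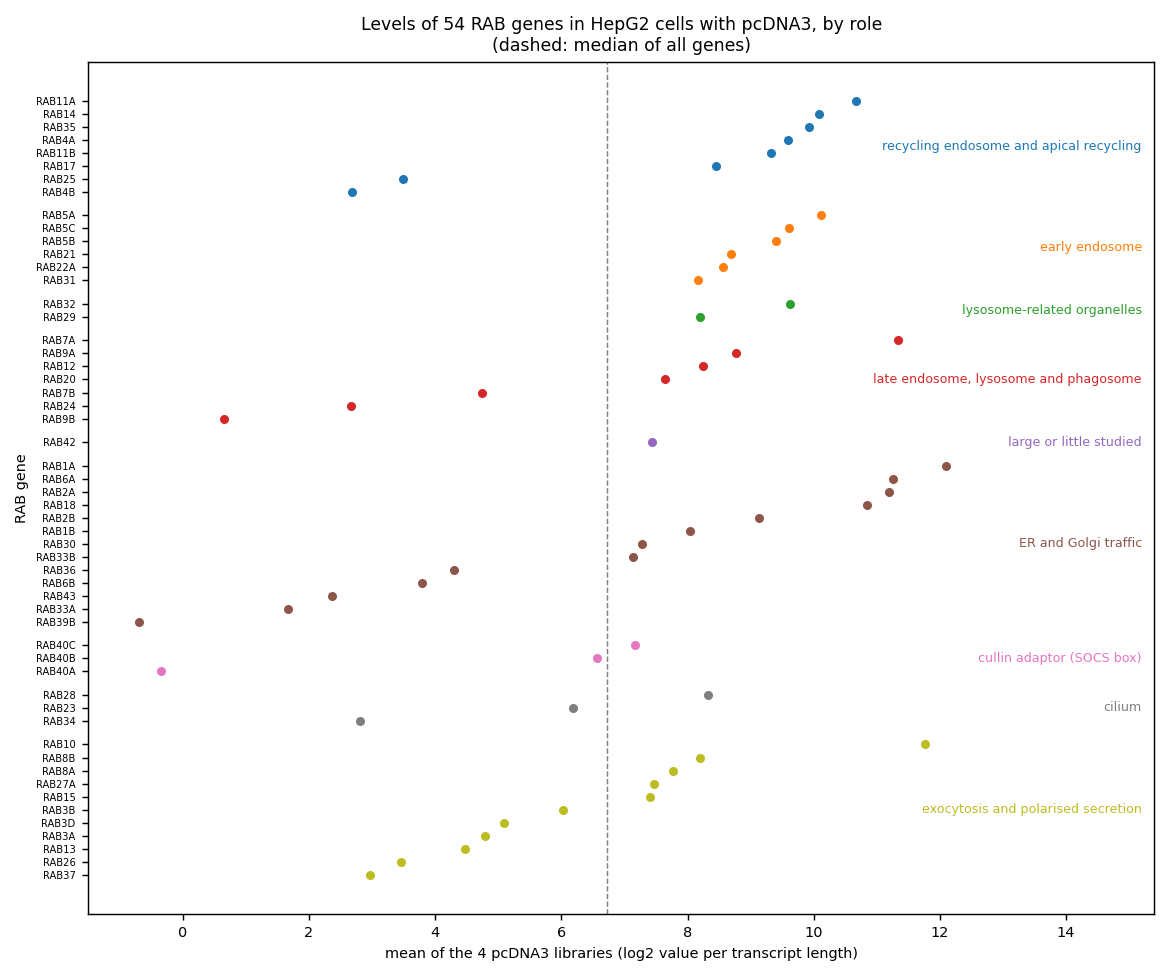
Mean log2 level per transcript length of each RAB gene in the 4 pcDNA3 libraries (horizontal axis), with genes on the vertical axis grouped and coloured by role and a dashed line at the median of all genes. RAB1A at 12.1 is farthest to the right, and 16 of the 54 genes lie under 5, RAB25 at 3.49 among them.

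The question put to the table was whether forced GRHL2 altered the expression of RAB25 and of the rest of the family. No RAB gene passed the test at an adjusted p under 0.05 (limma with the pair as a block, Benjamini-Hochberg over all genes). There were 0 of 54 higher and 0 of 54 lower, against 1.69% of all genes called higher and 0.501% called lower. At an unadjusted p under 0.05, 5 RAB genes were higher (RAB31, RAB3B, RAB3D, RAB7B and RAB37), where 9.17% of all genes were, and 2 were lower (RAB30 and RAB35), where 6.78% were. The groups did not overlap for 11 RAB genes that were higher with pGRHL2 (20.4%, against 13.4% of all genes) and for 3 that were lower (5.56%, against 10.5%). The 11 were RAB31, RAB27A, RAB3D, RAB11B, RAB7B, RAB2B, RAB37, RAB36, RAB25, RAB33A and RAB17, and the 3 were RAB30, RAB35 and RAB12.

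The differences were small throughout on the scale of the deposited values. They ran from -0.26 for RAB35 to 0.35 for RAB31 on the log2 scale, with a median of 0.03 over the 54 members against 0.0017 over all genes. Among genes under a level of 5, where such values are compressed towards no difference, 5 of 16 RAB genes were higher in all 4 pairs (31.2%), beside 20.9% of all genes at that level. At a level of 5 or more it was 6 of 38 RAB genes (15.8%) beside 8.81% of all genes.

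**Figure D2:**
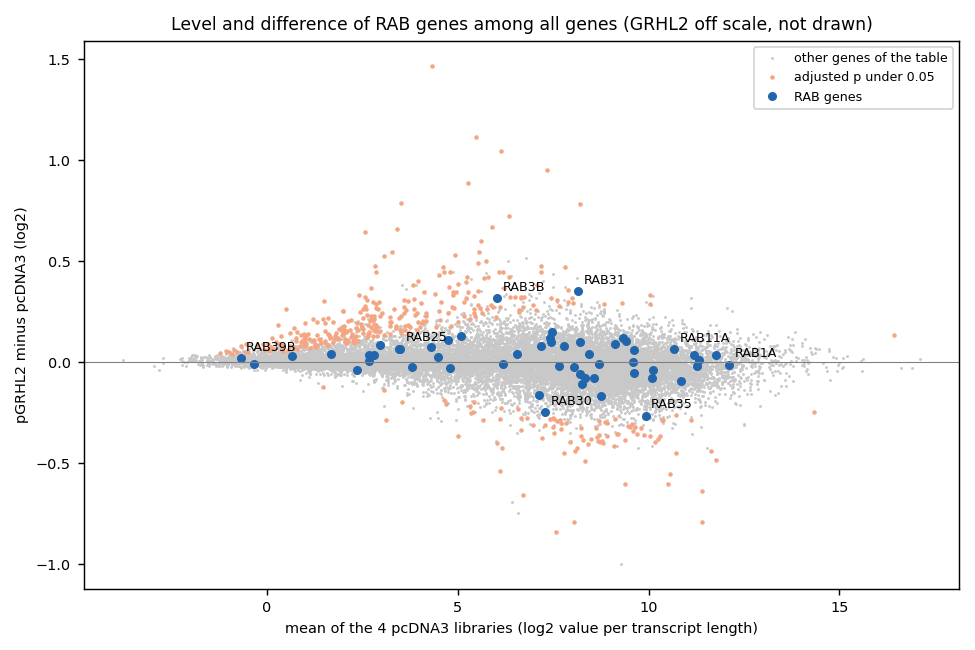
Mean log2 level with pcDNA3 (horizontal axis) against the mean difference pGRHL2 minus pcDNA3 (vertical axis, log2) for all genes in grey, genes with an adjusted p under 0.05 in orange and the 54 RAB genes in blue. RAB31 at 0.35 and RAB35 at -0.26 are the extremes of the family, none of whose members was called.

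RAB25 was slightly higher with pGRHL2 in every pair, but did not pass the test. The gene spans chr1:156061160-156070504 on the plus strand of hg38 and shares no exon bases with another gene of the annotation. With pGRHL2 its values were 3.55, 3.54, 3.54 and 3.61 in replicates 1 to 4, and with pcDNA3 they were 3.50, 3.51, 3.51 and 3.44. The groups did not overlap, and the 4 differences were 0.04, 0.02, 0.03 and 0.18, with that of pair 4 far from the other three. The mean difference was 0.07 ± 0.07 (SD, n = 4 pairs), a 1.05-fold ratio, with a 95% interval of -0.01 to 0.14 and an adjusted p of 0.362 (limma). An exact permutation test that flipped the signs of the 4 differences (two-sided) gave p = 0.125, the smallest value that 4 pairs allow. Without pair 4 the mean difference was 0.03. Values are compressed at low levels such as that of RAB25, so that the 1.05-fold ratio is not a fold change of read counts. The study selected RAB25 among genes that GRHL2 expression induced. It reports RT-qPCR induction of RAB25 by GRHL2 in HepG2 cells, in HepaRG cells and in mouse liver. Those RT-qPCR measurements are of another kind than the values here. The study also shows expression changes of its selected targets in its RNA-seq data, from these HepG2 cells and from mouse embryonic liver cells. Its fold changes came from DESeq2, not from the length-adjusted values used here.

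The promoter window of RAB25 is shown because RAB25 was named as a GRHL2 target. RefSeq (GRCh38.p14) places this window of 300 bases at chr1:156060910-156061209, plus strand, and it spans the gene start. Capitals mark the letters AACCTGTC.
RAB25: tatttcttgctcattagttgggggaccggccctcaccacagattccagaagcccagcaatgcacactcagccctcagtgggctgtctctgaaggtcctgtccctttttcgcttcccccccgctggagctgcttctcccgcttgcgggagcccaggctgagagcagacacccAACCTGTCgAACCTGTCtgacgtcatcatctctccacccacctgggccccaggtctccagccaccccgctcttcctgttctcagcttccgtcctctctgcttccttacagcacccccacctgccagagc

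GRHL factors bind the letters AACCGGTT, or more loosely AACNNGTT, and both are palindromes that read alike on the 2 strands. AACCGGTT is not in the RAB25 window, and is found in 0 of the 43 RAB windows available and in 18 of 12819 windows in all (0.14%). AACNNGTT, which includes the former, was found in 1 of the 43, that of RAB40A, and in 2.57% of all windows. Within 5 kb on either side of the gene start, AACCGGTT was found beside 0 of 54 RAB genes and 2.23% of all genes. The looser AACNNGTT was found there beside 38 RAB genes (70.4%) and 75.5% of all genes, RAB25 not being among them. AACCTGTC, a sequence chosen only after the RAB25 window had been read, occurs there as 2 copies 1 base apart. It does not match AACNNGTT, from which its last letter differs. Searched on both strands, at least 1 copy was found in 0.569% of all windows. The RAB25 window is among the 2 of 12819 with 2 or more copies, and no other RAB window held it. Because the sequence was taken from the RAB25 window, these counts are not a test. A match of letters does not show that a factor is bound, nor does the lack of a match show that it is not. Binding is not part of the values used here. The study shows GRHL2 ChIP-seq profiles at RAB25 in HepG2 cells with forced GRHL2, and calls it a previously identified target.

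RAB11A and RAB11B, the widely expressed members of the RAB25 subfamily, direct recycling endosomes back to the plasma membrane. RAB11A stood at 10.70, 10.76, 10.68 and 10.80 with pGRHL2 and at 10.70, 10.64, 10.72 and 10.60 with pcDNA3. The groups overlapped, with a difference of 0.07 ± 0.11 (SD, n = 4 pairs, adjusted p = 0.652, limma). RAB11B stood at 9.48, 9.43, 9.40 and 9.45 with pGRHL2 and at 9.28, 9.33, 9.37 and 9.31 with pcDNA3. Its groups did not overlap, with a difference of 0.12 ± 0.07, a 95% interval of -0.01 to 0.25 and an adjusted p of 0.356 (limma). The intervals of the 3 genes overlap, and no test of a difference between them was made.

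RAB17, an epithelial RAB of apical recycling, had differences of 0.01, 0.13, 0.03 and 0.0028, with a mean of 0.04 ± 0.06 (adjusted p = 0.786, limma). It was higher in 4 of 4 pairs, but by less than the spread between pairs. Of the 8 RAB genes listed under recycling, RAB11B, RAB17 and RAB25 were higher in all pairs (37.5%, against 13.4% of all genes) and RAB35 was lower in all (12.5%, against 10.5%), and the median difference was 0.04.

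RAB35 acts in fast endocytic recycling at the plasma membrane. It stood at 9.72, 9.76, 9.74 and 9.41 with pGRHL2 and at 9.86, 9.82, 9.84 and 10.17 with pcDNA3. The pGRHL2 libraries all lay below the pcDNA3 libraries, but the difference of pair 4, -0.76, was far larger than those of the other pairs, which were -0.14, -0.06 and -0.10. The mean difference was -0.26 ± 0.34 (SD, n = 4 pairs, adjusted p = 0.296, limma), and it was the lowest of the family. Without pair 4 it was -0.10. An antisense gene, RAB35-AS1, shares 14.8% of the RAB35 exon bases, and the counting did not use strand, so that reads of the 2 genes cannot be told apart there.

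RAB31, which acts between the trans-Golgi network and early endosomes, had the largest increase in the family and the lowest p. It stood at 8.59, 8.41, 8.43 and 8.61 with pGRHL2 and at 8.09, 8.26, 8.24 and 8.06 with pcDNA3. The groups did not overlap and the difference was at least 0.15 in every pair. The mean was 0.35 ± 0.20 (SD, n = 4 pairs), a 1.28-fold ratio, with an adjusted p of 0.0645 (limma), which misses the threshold. RAB31 was called under the weighting of libraries (difference 0.37, adjusted p = 0.0371) and after rescaling without GRHL2 (0.36, adjusted p = 0.0436). It was not called with robust moderation, median centring or a level filter (adjusted p = 0.0548 to 0.0704, limma). Nor was it called with any pair left out (difference 0.28 to 0.42, adjusted p = 0.0997 to 0.293, limma). The other 5 early endosome members, RAB5A, RAB5B, RAB5C, RAB21 and RAB22A, had mean differences between -0.08 and 0.10.

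Of the 11 members listed under exocytosis and polarised secretion, 9 had a mean difference above 0, as did 9042 of the 17561 genes, and 3 were higher in all pairs (27.3%, against 13.4% of all genes), with a median difference of 0.08. RAB3B, a RAB of regulated secretory vesicles, stood at 6.38, 6.06, 6.45 and 6.51 with pGRHL2 and at 5.997, 6.32, 5.93 and 5.87 with pcDNA3. It was higher in pairs 1, 3 and 4 and lower in pair 2, with a mean difference of 0.32 ± 0.40 (SD, n = 4 pairs, adjusted p = 0.261, limma). Without pair 2 the mean was 0.51, with an adjusted p of 0.0174, so that pair 2 decides this call.

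RAB3D, which is found on secretory granules of exocrine cells, was higher in all 4 pairs by 0.25, 0.16, 0.07 and 0.04 (mean 0.13, adjusted p = 0.205, limma). RAB27A, which tethers lysosome-related and exocytic vesicles, was also higher in all 4, but pairs 1 and 4 at 0.26 and 0.31 carried the mean of 0.15 (adjusted p = 0.349, limma), since pairs 2 and 3 were at 0.01 and 0.0022. RAB37 was at a level of 2.96 and differed by 0.09 (adjusted p = 0.164, limma). RAB10, the most expressed member of this list, differed by 0.04 ± 0.15.

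In ER and Golgi traffic, 13 members were tested, and 8 had a mean difference below 0, where 8519 of the 17561 genes did. RAB30, a Golgi RAB, stood at 6.96, 6.91, 7.14 and 7.15 with pGRHL2 and at 7.37, 7.41, 7.19 and 7.18 with pcDNA3. All 4 pGRHL2 libraries were lower, by 0.41 and 0.50 log2 units in pairs 1 and 2 but by only 0.04 and 0.03 in pairs 3 and 4. The mean difference was -0.25 ± 0.24 (SD, n = 4 pairs, adjusted p = 0.205, limma). RAB33B, a Golgi RAB with a part in autophagy, differed by -0.40, -0.02, -0.22 and 0.01, with a mean of -0.16 (adjusted p = 0.339, limma) and of -0.08 without pair 1. RAB1A differed by -0.01 ± 0.07 and RAB6A by -0.02 ± 0.14.

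Among late endosomal and lysosomal members, RAB9A, which acts in transport from late endosomes to the trans-Golgi network, differed by -0.35, -0.18, -0.44 and 0.31. Pair 4 thus had the opposite direction to the other pairs, and the mean was -0.17 ± 0.33 (adjusted p = 0.532, limma). RAB12 was lower in all 4 pairs (mean difference -0.11, adjusted p = 0.408, limma). RAB7B, which acts between late endosomes and the Golgi, was higher in all 4 by a mean of 0.11 (adjusted p = 0.241, limma). RAB7A differed by 0.01 ± 0.14.

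**Figure D3:**
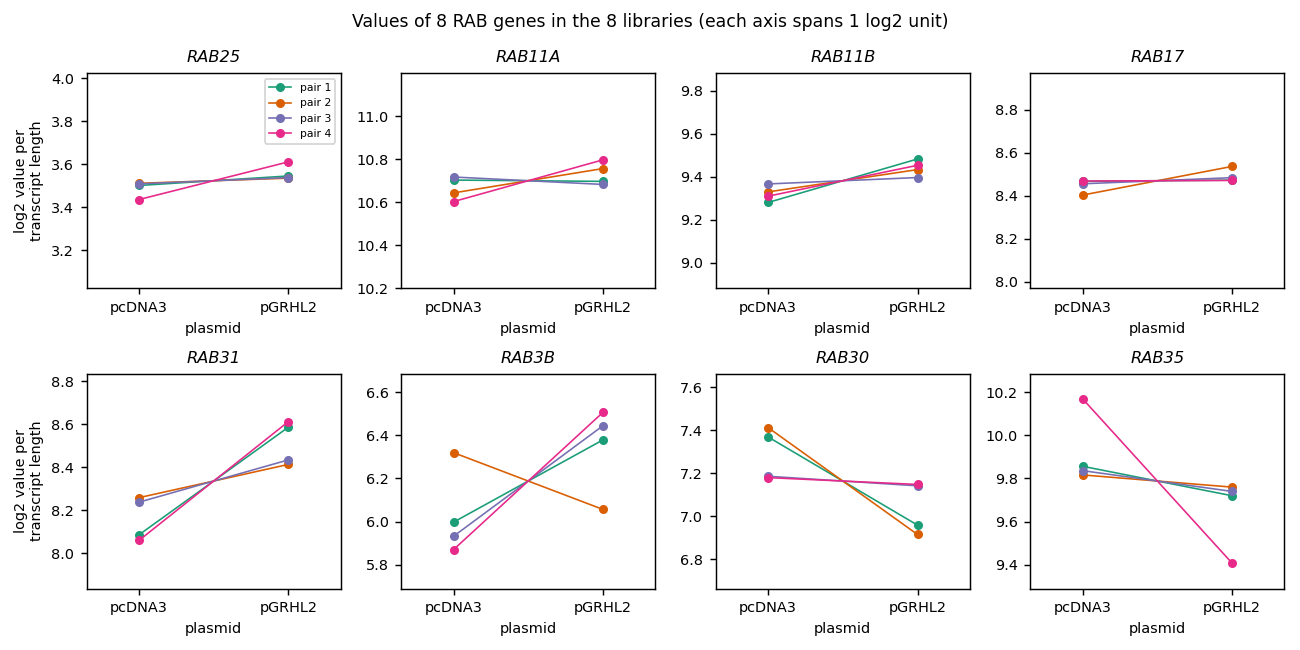
Log2 value per transcript length (vertical axis, each spanning 1 log2 unit) of 8 RAB genes with pcDNA3 and pGRHL2, where each line joins the libraries of 1 pair. RAB25 lines are nearly flat, RAB31 lines all go up, by 0.15 or more, RAB30 and RAB35 lines all go down, and RAB3B goes down in pair 2 alone.

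The remaining lists held few members. RAB29 and RAB32 of lysosome-related organelles differed by 0.10 and -0.05. RAB23, RAB28 and RAB34, which have parts in ciliary biology, differed by -0.01, -0.08 and 0.03. RAB40A, RAB40B and RAB40C, unusual RAB proteins with a SOCS box that recruits a cullin ubiquitin ligase, differed by -0.01, 0.04 and 0.08. None of these 8 genes was in the same direction in all pairs, and nor was RAB42, at 0.10.

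The pairs did not show the family alike. RAB genes were higher with pGRHL2 in 31 of 54 cases in pair 1 (57.4%), 34 in pair 2 (63%), 23 in pair 3 (42.6%) and 40 in pair 4 (74.1%), where all genes were at 51.5% to 52.3%. The median difference over the 54 was 0.09 in pair 4 and -0.01 in pair 3. Pair 4 alone was higher, with the other pairs lower, for 11 RAB genes (20.4%, against 7.92% of all genes), and pair 4 alone was lower for 7 (13%, against 7.86%). The 11 included RAB1A, RAB5A, RAB9A, RAB14 and RAB18. RAB18, a RAB of the ER and lipid droplets, differed by -0.17 in each of the first 3 pairs and by 0.14 in pair 4. These members were described after their values were seen, genes of a library are not independent, and the part that library preparation or the culture of pair 4 plays was not tested.

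**Figure D4:**
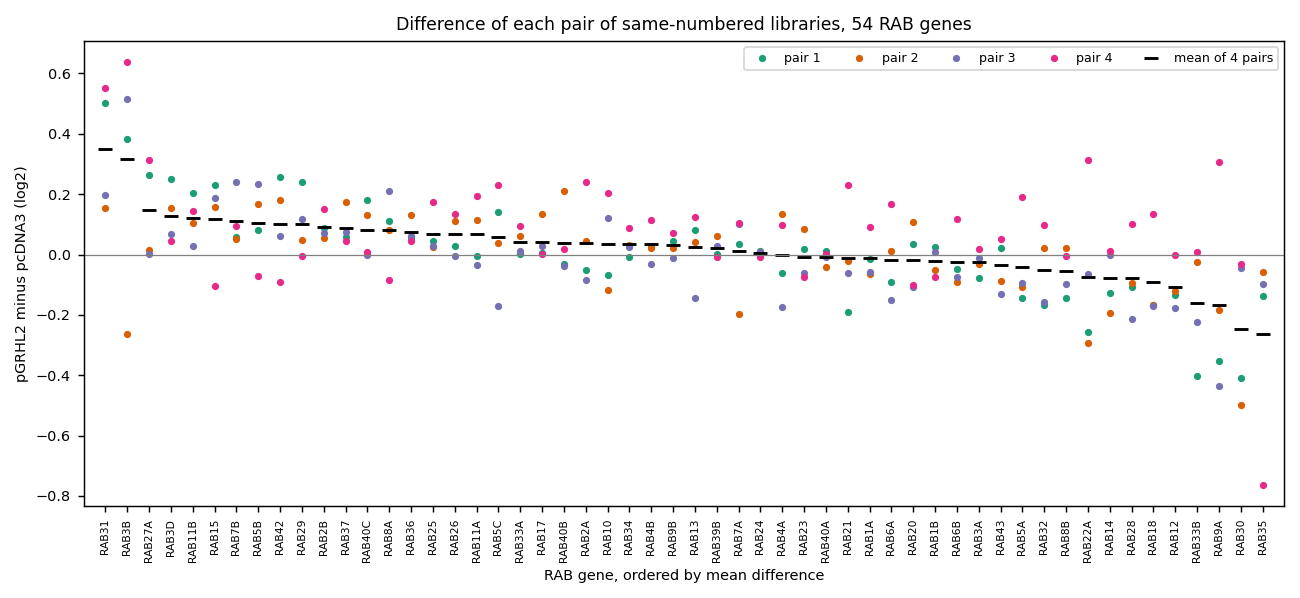
Difference pGRHL2 minus pcDNA3 (vertical axis, log2) of each of the 4 pairs as coloured points and their mean as a black bar, for the 54 RAB genes ordered by mean (horizontal axis). For most genes the points fall on both sides of 0, 11 genes have all 4 above it and 3 have all 4 below, and the pair 4 point of RAB35 at -0.76 is the lowest.

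The genes that control and read out RAB proteins were examined in the same fit. Of 152 listed partners in the table, 3 were called higher and 0 lower (1.97% in all, against 1.69% of all genes higher and 0.501% lower), and their median difference was 0.0007. At an unadjusted p under 0.05, 14 of 152 partners were higher and 12 were lower, where 9.17% and 6.78% of all genes were. In all 4 pairs 17 were higher (11.2%, against 13.4% of all genes) and 16 were lower (10.5%, as for all genes).

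Of 45 GEFs, the DENN domain genes DENND2A and DENND2C were called (4.44%, against 2.19% of all genes and 3.545% of all genes under a level of 5). DENND2A, at a level of 1.64, was higher by 0.15, 0.10, 0.10 and 0.15 (mean 0.13, adjusted p = 0.0137, limma). DENND2C, at a level of 3.84, was higher by 0.31, 0.05, 0.52 and 0.37 (mean 0.31, adjusted p = 0.0454, limma). Both calls were lost when replicate 1, 3 or 4 was left out, with adjusted p values of 0.0501 to 0.0805 for DENND2A and 0.136 to 0.183 for DENND2C, while the differences were 0.12 to 0.13 and 0.24 to 0.31. DENND5B, also a DENN domain gene, was lower in 4 of 4 pairs, with a mean difference of -0.28 (adjusted p = 0.0565, limma).

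Of 41 GAPs none was called, and TBC1D22B, TBC1D31 and TBC1D7, members of the TBC domain family, had the lowest p, with differences of -0.23, -0.17 and -0.18. Of the 9 prenylation and GDI genes none was called. In all 4 pairs 3 of them, RABGGTB, CHML and CHM, were lower (33.3%, against 10.5% of all genes). In the other direction it was 0 of 9, against 13.4% of all genes. RABGGTB, the beta subunit of the enzyme that prenylates RAB proteins, was lower in all 4 pairs with a mean difference of -0.18 (adjusted p = 0.191, limma). CHML, an escort protein that presents RAB proteins to that enzyme, was lower in all 4 by -0.16, -0.11, -0.08 and -0.15 (adjusted p = 0.308, limma).

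Among the 13 effectors of RAB11 and RAB25, 1 was higher and 1 was lower in all 4 pairs (7.69% each, against 13.4% and 10.5% of all genes). RAB11FIP5, an adaptor of the RAB11 family interacting proteins, was higher in 4 of 4 pairs with a mean difference of 0.17 (adjusted p = 0.206, limma). RAB11FIP2, which links RAB11 to the motor MYO5B, was lower in 4 of 4 with a mean difference of -0.17 (adjusted p = 0.168, limma). WDR44, which also binds RAB11, differed by -0.16 and was higher in 1 of 4 pairs. None of the 13 was called, and their median difference was 0.05.

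Of 45 other effectors, RIMS2, a scaffold of vesicle release that binds RAB3 proteins, was called (2.22%, against 2.19% of all genes). It was at a level of 1.31 and was higher by 0.15, 0.23, 0.28 and 0.14 (mean 0.20, adjusted p = 0.00545, limma). SYTL1, a synaptotagmin-like effector of RAB27 proteins, was higher by 0.21, 0.21, 0.19 and 0.28 (mean 0.22, adjusted p = 0.0666, limma). OSBPL1A, an effector of RAB7, was higher by 0.08 (adjusted p = 0.0790, limma) at a level of 1.93. All 3 partner genes that were called had levels under 5.

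**Figure D5:**
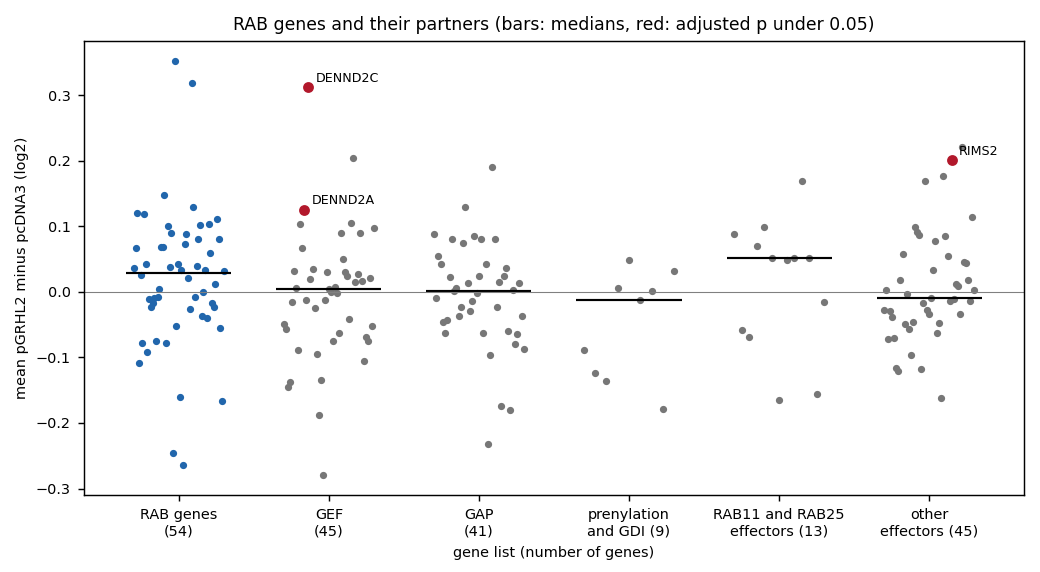
Mean difference pGRHL2 minus pcDNA3 (vertical axis, log2) of the RAB genes and of their partners by list (horizontal axis), where bars are list medians and red points are genes with an adjusted p under 0.05. DENND2A, DENND2C and RIMS2 are the red points, between 0.13 and 0.31, and every list median lies between -0.0125 and 0.0517.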

How the data were processed

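RNA of HepG2 cells was sequenced in 4 pGRHL2 and 4 pcDNA3 libraries, grouped by the plasmid given in the labels. Reads were aligned by the authors to hg38 using HISAT2 (version 2.2.1 per the submitters' processing notes), and counted over exons without strand with HTSeq (0.9.1). The authors then removed genes with few reads and adjusted the rlog values of DESeq2 (1.40.2) for transcript length. The deposited log2 values are these; the identity of pair means in all genes (largest spread 1.53e-13) is not described in the sources used here, and 1 stray character was removed.

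Every gene was fitted with limma (3.58.1, R 4.3.3; lmFit, eBayes with trend) on plasmid and replicate number (the block; 3 residual degrees of freedom), and p-values were adjusted by Benjamini-Hochberg over 17561 genes. As the pair means were already removed, a correlation between same-numbered libraries is fixed at its lowest value and cannot check the pairing; per the study, the replicates are independent biological ones. Exon sharing came from GENCODE annotation. The script was tested on simulated data.

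Members and lists were chosen with earlier results of these data known. Genes named were RAB25, RAB11A, RAB11B, RAB17, the 5 members with the largest increase and decrease, the 5 highest and lowest in level, called genes, the 3 lowest p of each partner list and GRHL2; 1 partner gene under this rule is not reported here, and other members are named where they are counted. Alternatives were the fit without the block, robust moderation, library weights, other scalings, level filters, a stricter threshold and leaving out each pair.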

Additional observations from a re-analysis of the deposited data

Results flagged for a closer look

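In 5 of the 54 RAB genes pair 4 stood apart from the other pairs, where the gap between a library and its nearest neighbour, over the range of its group of 4, exceeded Dixon's critical value. Chance alone flags about 1 group in 20, and 6.26% of all genes passed this limit. RAB25 differed by 0.1754 in pair 4 and by 0.03 in the median of the other pairs. RAB35 had -0.7641 in pair 4, where the median of the other pairs was -0.10. RAB18 differed by 0.135 in pair 4 and by -0.17 in the others, and RAB5A by 0.1899 against a median of -0.11. RAB24, at a level of 2.67 and with 44.8% of its exon bases shared with another gene, had -0.0094 in pair 4 against a median of 0.008, which is a very small range. The part that the culture or library of pair 4 plays in these values was not tested.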

How the results depend on the processing

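The difference of RAB25 kept its direction under every alternative run, its adjusted p staying between 0.07495 and 0.6395, and took values of 0.0325 (without pair 4) to 0.083 (without pair 2); its level is under the filter at 5, which gave no value. Without the replicate block, 7 RAB genes were called higher (RAB11B, RAB2B, RAB31, RAB36, RAB37, RAB3D and RAB7B) and 2 lower (RAB12 and RAB30), beside 1821 and 1427 of all genes and 15 and 12 partners. That fit counts 6 residual degrees of freedom although the pair means had been removed. Library weights gave 1 RAB gene higher (RAB31), 503 and 221 of all genes, and 6 and 1 partners, and rescaling without GRHL2 gave 1 RAB gene (RAB31) and 495 genes higher. Robust moderation called 1 partner lower (DENND5B). The filter at 5 left 63 genes and 0 partners higher, and an adjusted p under 0.01 left 77 and 10 genes and 1 partner. Leaving out each pair gave 0 to 1 RAB genes higher, 79 to 156 genes higher, 8 to 68 lower and 1 to 3 partners higher; RAB3B was the RAB gene, without replicate 2.

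Signs near 0 turned for RAB1A (0.0022 after rescaling), RAB40A (0.0049 after rescaling) and RAB7A (-5e-04 with weights). On leaving out a pair the ranges were -0.0453 to 0.0064 for RAB1A, -0.0149 to 0.0019 for RAB40A, -0.0195 to 0.0808 for RAB7A, -0.0207 to 0.087 for RAB10, -0.0771 to 0.0285 for RAB6A and -0.0307 to 0.0772 for RAB2A. The cause of these changes was not tested. Over 38 named genes, 229 of 254 values under other settings and 136 of 152 on leaving out a pair kept direction and side of the threshold. Median centring moved all differences by -0.0043 and rescaling by 0.0135. Of all genes, 3.545% were called at a level under 5, where 16 RAB genes lie, RAB25 among them, and 1.355% at 5 or more. The median SD of the pair differences was 0.0375 under 5 and 0.1168 at 5 or more. Whether compression of low values bears on RAB25 was not tested.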
